A study of Mus musculus with 6 samples.

Results

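The genes that make, sense, anchor and degrade cyclic AMP (cAMP) were examined in mouse gastrocnemius (GAS) muscle. They were taken by symbol: the numbered beta-adrenergic receptors (*Adrb*), the stimulatory G protein gene *Gnas*, the numbered adenylyl cyclases (*Adcy*), the catalytic (*Prkac*) and regulatory (*Prkar*) subunits of protein kinase A (PKA), the PKA inhibitors (*Pkia*, *Pkib*, *Pkig*), the numbered A-kinase anchoring proteins (*Akap*) and the cyclic nucleotide phosphodiesterases (*Pde* followed by a number and a letter from a to d). Of the 24532 genes in the deposited table, 61 matched, and the 50 with at least 60 counts summed over all 6 libraries were kept. The member with the lowest sum was *Adrb3*, with 80 counts. Of the 11 matched genes under the floor, *Pde11a* had 17 counts, *Adcy8* 13, *Adrb1* 10 and *Adcy10* 2, and 7 had a count of 0 in all libraries: *Akap3*, *Akap4*, *Akap14*, *Pkib*, *Pde6a*, *Pde6b* and *Pde6c*. All 50 members passed the filter on low counts and were tested.

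The libraries were bulk RNA-seq of whole GAS muscle from 3 C57BL/6 mice labelled WT, which carry the *Sirt6* flox/flox alleles without Cre, and 3 labelled *Sirt6* KO, which carry the same alleles together with *Myl1-Cre*, all at 20 weeks of age and, per the methods, male. *Sirt6* encodes a NAD-dependent deacylase, and as the study describes it the *Myl1* promoter drives Cre mainly in postmitotic type II fibers, so slow fibers and non-muscle cells were not its main target. The *Sirt6* flox line is given under 1 name in the methods and another in the reporting summary. The question the comparison addresses is which genes of this pathway differ in muscle when *Sirt6* is deleted in fast fibers, in a study that followed CREB, the transcription factor that PKA phosphorylates.

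In muscle, adrenaline and related ligands act on beta-adrenergic receptors, which through the Gs protein activate adenylyl cyclase at the plasma membrane. The cAMP formed binds the regulatory subunits of PKA and frees the catalytic subunits, which phosphorylate metabolic enzymes, calcium-handling proteins and CREB. Anchoring proteins hold PKA near its substrates, PKI peptides block free catalytic subunits, and phosphodiesterases end the signal by hydrolyzing cAMP, cGMP or both. CREB binds the cAMP response element (CRE), whose full form is the palindrome TGACGTCA.

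The library totals lay between 44845763 and 63016899 counts. *Sirt6* itself went against the labels: its CPM, counts scaled to the library total with factors (TMM) that correct for composition, were 2.77, 2.23 and 2.88 in WT libraries 1 to 3 and 7.81, 7.44 and 6.68 in the libraries labelled KO, 2.78-fold higher there (adjusted p = 0.0113, edgeR's quasi-likelihood test), and the groups keep the names of their labels in what follows. A count per gene does not show which exons gave the reads, so it cannot tell transcripts with the deleted part from those without it. *Creb1*, the CREB gene, read 34.0, 28.8 and 25.3 CPM in WT and 16.7, 12.9 and 15.6 CPM in the KO-labelled libraries (log2 fold change -0.96 ± 0.15 SE, adjusted p = 0.0144, edgeR). Of 8 skeletal muscle fiber markers none was at 0 counts, and their sum was 132993 to 207114 CPM in WT and 192696 to 216330 CPM in the KO-labelled libraries. The sum of 8 slow fiber markers spread widely within both groups, at 7302, 8166 and 1389 CPM in WT 1 to 3 and 1672, 4793 and 2071 CPM in KO 1 to 3, with no marker called. *Myh2*, the myosin gene of type IIa fibers, was the largest part of each sum. It read 3732, 5223 and 1256 CPM in WT and 1313, 2694 and 1571 CPM in the KO-labelled libraries. *Myh7*, that of type I fibers, spread more widely than the sum, at 1138, 958 and 21.7 CPM in WT and 100, 720 and 163 CPM. WT 3 also had the lowest sums of the 8 endothelial markers (188 CPM against 341 and 381 CPM in the other WT libraries and 221 to 237 CPM in the KO-labelled libraries) and of the erythroid markers (46.6 CPM against 291 to 297 CPM, and 80.2 to 181 CPM). WT 1 had the highest macrophage sum, 98.8 CPM against 33.6 to 52.3 CPM in the other 5 libraries.

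*Pde4d*, *Pde7a*, *Pde2a* and *Akap8l* were the members whose adjusted p was under 0.05. The first 3 encode phosphodiesterases, and 18 of the 50 members are of that role. Of those 18, 11.1% were called lower and 5.56% higher, near the shares of all genes given below. *Pde4d* and *Pde7a*, which encode cAMP-specific phosphodiesterases, were lower in the libraries labelled KO, by 1.69-fold and 1.51-fold. *Pde2a*, a phosphodiesterase that hydrolyzes both cAMP and cGMP and is activated by cGMP, was 1.54-fold higher, and *Akap8l*, a nuclear protein of the anchoring protein family, was 1.44-fold higher. Over all 13801 genes tested, 8.39% were called lower and 7.85% higher at this threshold. The 2 of 50 members in each direction are a smaller share, by few genes, and the difference was not tested. The other 46 members missed the threshold. By a second rule, which asks for more than 2-fold and takes p before adjustment at 0.05, 2 members passed as lower, *Adcy4* among them, and no member as higher, against 4.69% and 3.14% of all genes. The log2 fold change of 35 of the 50 members (70%) was below 0, against 51.6% of all genes tested. The median of the members was -0.21, where the median over all genes was -0.02. Leaving out 1 library moved the number of called members between 0 without WT 2, KO 1 or KO 3 and 13 without WT 3 (9 lower, 4 higher), where 15.7% of all genes were called lower and 16.7% higher. Without KO 1, 2 genes of the whole table were called lower and 6 higher.

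**Figure D1:**
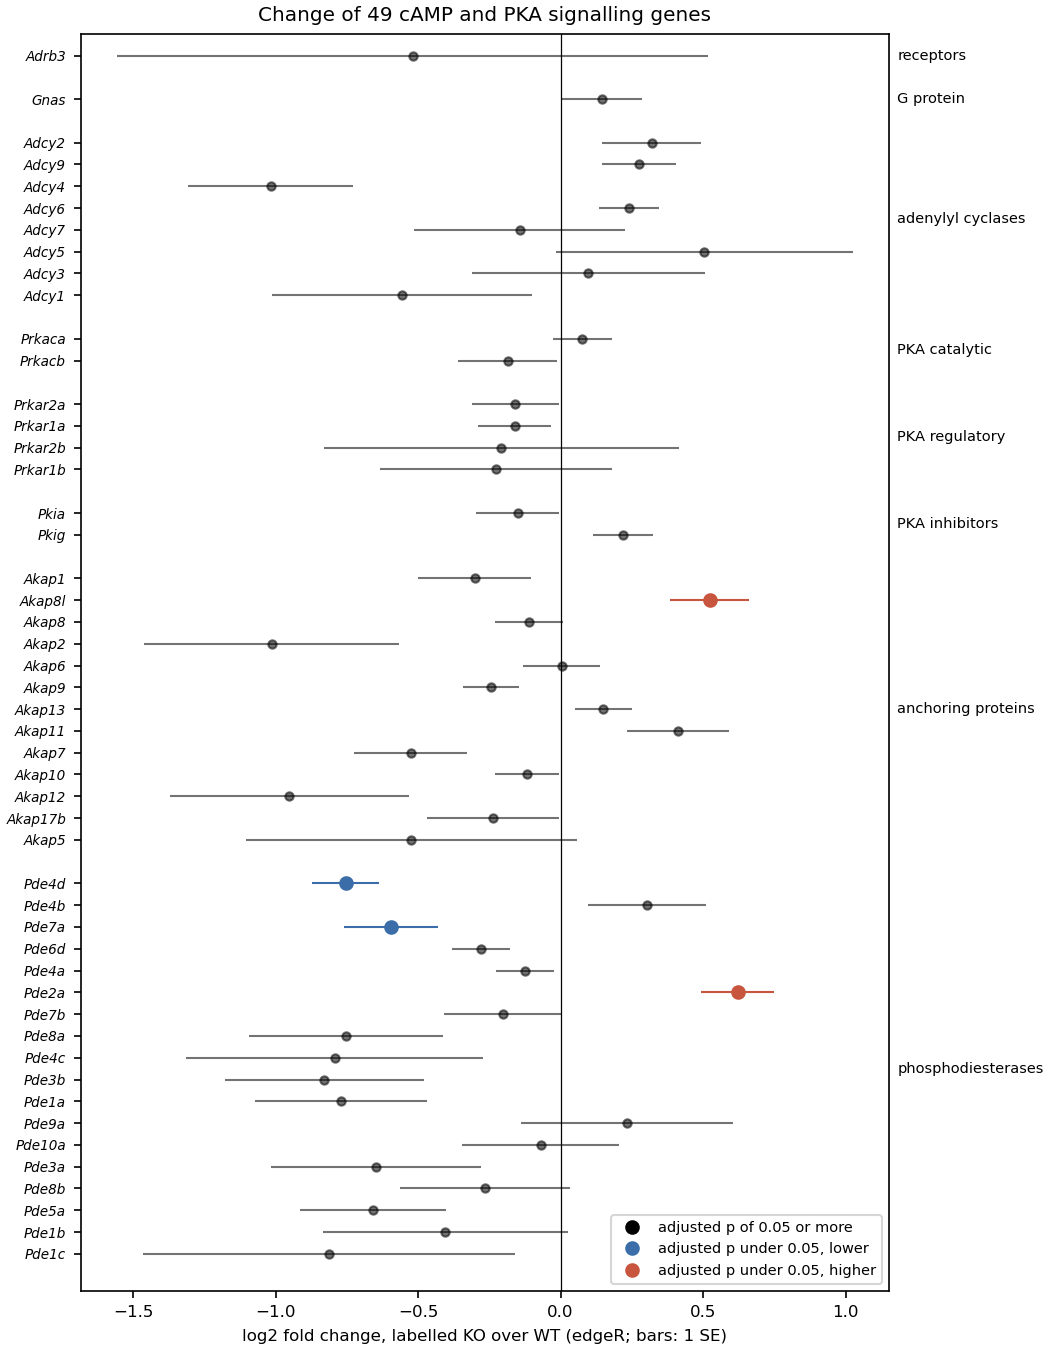
Log2 fold change of 49 members, libraries labelled KO over WT, from edgeR's fit (horizontal axis; bars are 1 SE), grouped by role and ordered within a role by mean TPM. *Pde4d* and *Pde7a* (blue) lie below 0 and *Pde2a* and *Akap8l* (red) above 0. Of the 18 phosphodiesterase points 15 lie below 0, where 51.6% of all genes tested do.

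The promoter windows of the called members are shown with that of *Prkar1a*, since the results turn on the former and the latter is the one member whose window holds the full CRE palindrome. RefSeq windows on GRCm38.p6, from 250 bases before to 50 bases after an annotated start, were found for 40 of the 50 members, *Pde7a* not among them. The sequences read 5′ to 3′ on the gene's strand. Capitals mark the CRE palindrome alone in *Prkar1a*, and in the others the CRE core TGACG, which is present there as its reverse complement CGTCA.
*Pde4d*, chr13:108653927-108654226, plus strand: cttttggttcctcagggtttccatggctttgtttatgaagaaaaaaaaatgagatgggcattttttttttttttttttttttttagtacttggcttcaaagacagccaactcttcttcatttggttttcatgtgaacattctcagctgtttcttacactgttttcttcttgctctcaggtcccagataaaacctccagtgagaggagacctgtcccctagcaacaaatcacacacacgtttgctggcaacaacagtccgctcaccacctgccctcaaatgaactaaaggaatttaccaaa
*Pde2a*, chr7:101450270-101450569, plus strand, 1 of its 5 annotated windows: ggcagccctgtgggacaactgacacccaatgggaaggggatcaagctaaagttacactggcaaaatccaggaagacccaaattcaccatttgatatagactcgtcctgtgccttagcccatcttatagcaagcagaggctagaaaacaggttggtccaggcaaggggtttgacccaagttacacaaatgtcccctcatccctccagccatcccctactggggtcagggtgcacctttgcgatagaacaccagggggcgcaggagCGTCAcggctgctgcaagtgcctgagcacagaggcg
*Akap8l*, chr17:32350528-32350827, minus strand: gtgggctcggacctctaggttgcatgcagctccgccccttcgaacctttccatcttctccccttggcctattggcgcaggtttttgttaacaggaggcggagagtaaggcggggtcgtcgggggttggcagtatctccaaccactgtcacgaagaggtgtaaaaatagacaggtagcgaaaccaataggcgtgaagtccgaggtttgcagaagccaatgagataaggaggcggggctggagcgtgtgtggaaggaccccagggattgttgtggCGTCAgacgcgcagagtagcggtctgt
*Prkar1a*, chr11:109650699-109650998, plus strand, 1 of its 6 annotated windows: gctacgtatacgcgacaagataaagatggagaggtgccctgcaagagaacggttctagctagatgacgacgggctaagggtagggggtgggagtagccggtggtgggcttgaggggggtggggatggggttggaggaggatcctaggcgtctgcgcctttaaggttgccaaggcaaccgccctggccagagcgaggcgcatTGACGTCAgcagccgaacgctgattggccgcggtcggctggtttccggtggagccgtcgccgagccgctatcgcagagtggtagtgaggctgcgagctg
The *Pde4d* window holds neither form and has a run of 24 T. It is the only window found for that gene and lies at the gene's first annotated base. Starts elsewhere in *Pde4d* were not searched, and which start is used in muscle is not known from these data. Of the 5 *Pde2a* windows only the 1 shown holds the core. The others hold neither form, among them chr7:101421441-101421740 at the gene's first annotated base. Which of these starts is used in muscle is not known from these data either. The CGTCA of *Pde2a* starts at base 15 and that of *Akap8l* at base 24 after the start site, and the palindrome of *Prkar1a* starts 49 bases before it. Searched on both strands, the palindrome occurred in 1.79% of all 32851 windows and 2.33% of member windows. The core (TGACG or CGTCA, which the palindrome contains) occurred in 20.8% of all windows and 24.4% of member windows, and counted by gene in at least 1 window of 23.0% of all 27025 genes and of 17 of the 40 members (42.5%), which had 86 windows between them. A match describes the letters in these windows and not a bound site.

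Across roles the levels of the members spanned a wide range on the deposited TPM scale, which divides by gene length and so allows genes to be compared. *Gnas*, which encodes the Gs alpha subunit, had the highest mean, 1139 TPM (968.8 to 1287 over the libraries). *Pkia*, the muscle form of the PKA inhibitor, followed at 419 TPM (346 to 472), above *Pde4d* at 158 TPM, the regulatory subunit *Prkar2a* at 119.5 TPM and *Pde4b* at 100.2 TPM. Means under 1 TPM were found for 13 members, among them *Adrb3*, *Prkar1b*, *Prkar2b*, *Adcy1* and *Pde1c*. *Gnas* counts pool alternative transcripts of an imprinted locus that overlaps an antisense gene, and the sources used here do not say whether counting used strand.

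**Figure D2:**
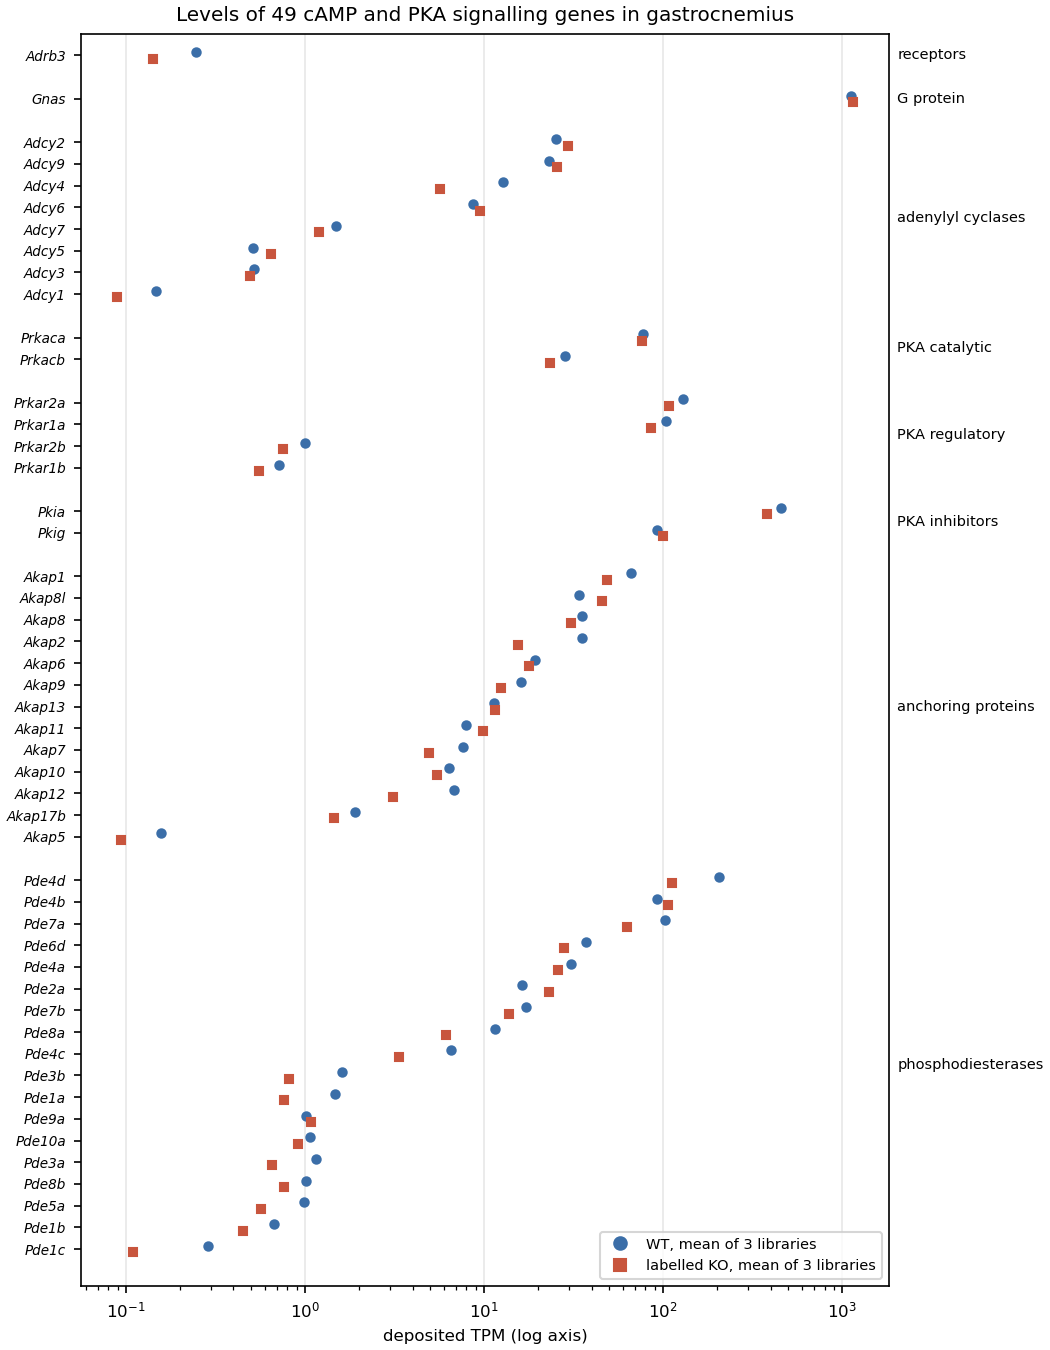
Deposited TPM of 49 members on a log axis, as the mean of 3 WT libraries (circles) and of 3 libraries labelled KO (squares), grouped by role. *Gnas* lies highest at a mean of 1139 TPM over all libraries, and *Pkia* at 419 TPM lies above each catalytic and regulatory PKA subunit.

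Among the phosphodiesterases, *Pde4d* showed the clearest separation. Its gene lies at chr13:108654177-109955969, and its libraries held 22130 to 38391 counts each. WT libraries 1 to 3 read 636, 668 and 670 CPM, and those labelled KO read 400.0, 369 and 402 CPM. All 3 KO-labelled libraries were below all 3 WT libraries, and the gap between the groups was far wider than the spread within either (658 ± 18.8 and 390 ± 18.4 CPM, SD, n = 3 each). This gave a log2 fold change of -0.75 ± 0.12 SE (adjusted p = 0.0141, edgeR), the 273rd smallest p of 13801. It stayed between -0.79 and -0.69 under all 14 alternatives (other tools, filters, scalings and fits without 1 library) and passed the threshold in 11 of them, including the correction of each library for its trend over the GC content of genes (-0.79, adjusted p = 0.0247, edgeR). Without WT 2, KO 1 or KO 3 its adjusted p was 0.0561, 0.064 and 0.0818.

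*Pde7a*, at chr3:19223108-19311322, read 241, 297 and 313 CPM in WT and 168, 224 and 172 CPM in the KO-labelled libraries. The groups did not overlap, but KO 2 lay close to WT 1. Its log2 fold change of -0.60 ± 0.16 SE had an adjusted p of 0.0488 in edgeR's fit, just inside the threshold. With the GC correction the change was -0.40 (adjusted p = 0.156), and leaving out any 1 of the 6 libraries put the adjusted p between 0.055 and 0.181.

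*Pde2a*, at chr7:101421691-101512829, read 30.8, 29.6 and 30.8 CPM in WT, with an SD of 0.72 CPM, and 54.9, 40.9 and 44.4 CPM in the KO-labelled libraries. Every KO-labelled library was above every WT library, and the spread among the former was the larger (SD 7.29 CPM). This gave a log2 fold change of 0.62 ± 0.13 SE (adjusted p = 0.0236, edgeR). After GC correction it was 0.43 with an adjusted p of 0.0872, and without WT 1, WT 2, KO 1 or KO 3 the adjusted p lay between 0.0738 and 0.0865.

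**Figure D3:**
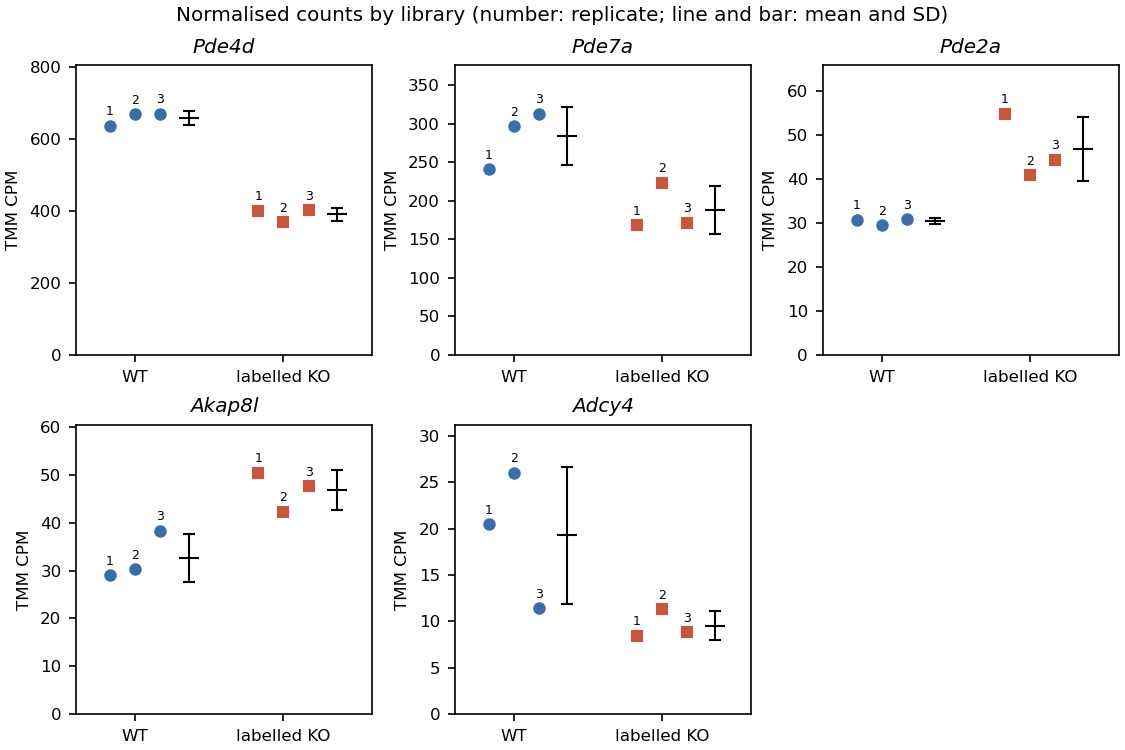
TMM-normalised CPM of 5 members in each library, WT (blue circles) and labelled KO (red squares), with the replicate number above each point and the mean and SD at the right of each group. *Pde4d* and *Pde2a* show a wide gap between groups, while in *Adcy4* WT 3 at 11.4 CPM lies just above KO 2 at 11.3 CPM.

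The other *Pde4* genes did not show the same pattern. *Pde4b*, the second most abundant phosphodiesterase, read 183, 141 and 216 CPM in WT and 222, 177 and 267 CPM in the KO-labelled libraries, with overlapping groups and a log2 fold change of 0.30 ± 0.21 SE. The log2 fold change of *Pde4a* was -0.13 ± 0.10 SE and that of *Pde4c* -0.79 ± 0.52 SE. The ratio of *Pde4d* to *Pde4b* TPM within a library, which does not depend on scaling between libraries, was 2.08, 2.82 and 1.85 in WT and 1.07, 1.24 and 0.89 in the KO-labelled libraries, without overlap. The 15 members that hydrolyze cAMP summed to 518, 499 and 452 TPM in WT and 376, 340 and 362 TPM in the KO-labelled libraries. *Pde4d* made up 40.6% to 42.8% of that sum in WT and 30.7% to 31.6% in the KO-labelled libraries, *Pde4b* 15.2% to 22.0% and 24.8% to 34.9%, and *Pde2a* 3.21% to 3.47% and 5.84% to 7.44%. Without *Pde4d* and *Pde7a* the sums overlapped, at 168 to 206 TPM in WT and 162 to 199 TPM in the KO-labelled libraries. These sums and shares are descriptions and were given no test.

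**Figure D4:**
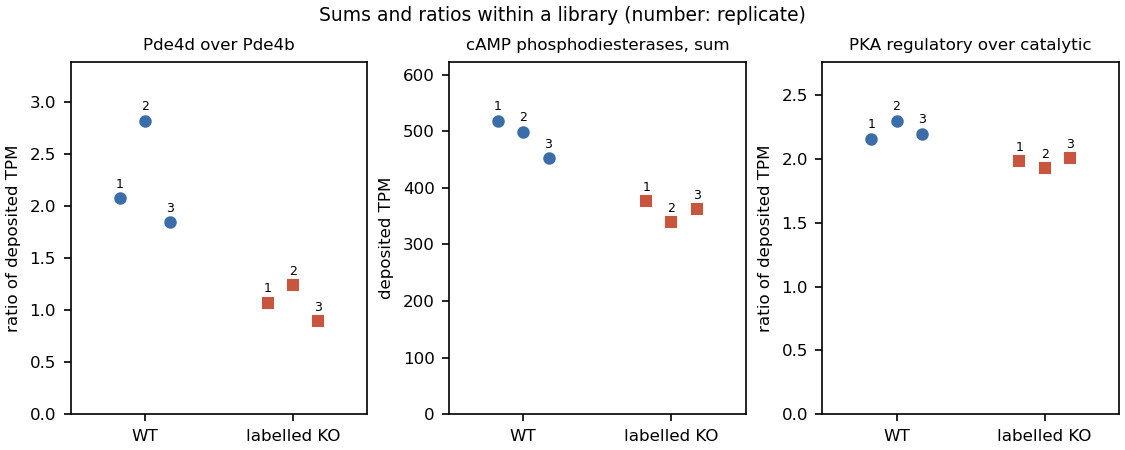
Values within each library from deposited TPM: the ratio of *Pde4d* to *Pde4b*, the sum of 15 phosphodiesterases that hydrolyze cAMP, and the ratio of regulatory to catalytic PKA subunits, for WT (circles) and labelled KO (squares), with the replicate number above each point. In all 3 panels the 3 WT points lie above the 3 points of the libraries labelled KO, with the widest gap relative to its size in the *Pde4d* ratio.

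The remaining phosphodiesterases mostly lay below 0 without passing the threshold. *Pde6d*, which despite its name encodes a chaperone of prenylated proteins, read 17.5, 18.3 and 19.6 CPM in WT and 15.3, 15.4 and 14.9 CPM in the KO-labelled libraries, a small and non-overlapping difference (-0.28 ± 0.10 SE, adjusted p = 0.0983, edgeR). Its gene overlaps *Cops7b*. *Pde1a*, a calcium- and calmodulin-dependent form, and *Pde5a*, which is specific for cGMP, also did not overlap, with log2 fold changes of -0.77 ± 0.30 and -0.66 ± 0.26 SE (adjusted p = 0.117 and 0.114, edgeR). Both were of low level, at most 3.8 CPM in any library. *Pde3a* and *Pde3b*, which cGMP inhibits, had log2 fold changes of -0.65 ± 0.37 and -0.83 ± 0.35 SE, and *Pde8a*, a cAMP-specific form of high affinity, one of -0.75 ± 0.34 SE. For the rest (*Pde1b*, *Pde1c*, *Pde7b*, *Pde8b*, *Pde9a* and *Pde10a*) the log2 fold changes ran from -0.81 in *Pde1c* to 0.23 in *Pde9a*, all with overlapping groups. Over the 18 phosphodiesterases, 2 were called lower (11.1%), 1 higher (5.56%) and 15 not, against 8.39% and 7.85% of all genes tested. The median log2 fold change was -0.50, and 15 of the 18 were below 0, against 51.6% of all genes tested. Of those below 0, *Pde3a*, *Pde3b*, *Pde4c*, *Pde8a*, *Pde8b* and *Pde10a* had WT 1, WT 2 and KO 2 as their highest libraries.

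At the head of the pathway, the receptors and *Gnas* gave no call. *Adrb3*, the receptor of fat cells, had at most 0.60 CPM in any library and no count in WT 3. *Gnas* read 940, 898 and 1096 CPM in WT and 1074, 1053 and 1119 CPM in the KO-labelled libraries, a log2 fold change of 0.15 ± 0.14 SE that was -0.09 after GC correction.

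Of the 8 adenylyl cyclases none was called. *Adcy2* and *Adcy9*, the most abundant at 27.6 and 24.5 TPM, together made up 62.4% to 76.3% of cyclase TPM in WT and 75.9% to 76.1% in the KO-labelled libraries, and their log2 fold changes were 0.32 ± 0.17 and 0.27 ± 0.13 SE. *Adcy4* read 20.5, 26.0 and 11.4 CPM in WT and 8.44, 11.3 and 8.84 CPM in the KO-labelled libraries. Its groups touched, with WT 3 only just above KO 2. The log2 fold change of -1.02 ± 0.29 SE had an adjusted p of 0.0527 in edgeR's fit, the nearest miss among the members, and of 0.00635 by DESeq2, and it passed the threshold in 4 of 14 alternatives. *Adcy4* is known from endothelial cells, and the endothelial marker sum followed the same order in WT, with its lowest value in WT 3 (0 of 8 markers called, none at 0, 188 to 381 CPM in WT and 221 to 237 CPM in the KO-labelled libraries). Its part in the *Adcy4* value was not tested, and in bulk RNA fewer cells of a type and less RNA per cell cannot be told apart. *Adcy6* was higher without overlap, at 22.4 to 25.7 CPM in WT and 26.5 to 29.2 CPM in the KO-labelled libraries, but its log2 fold change of 0.24 ± 0.10 SE was 0.04 after GC correction. *Adcy1*, *Adcy3*, *Adcy5* and *Adcy7* were all under 1.5 TPM on average, with log2 fold changes from -0.56 to 0.50 and overlapping groups, and *Adcy7*, a cyclase of blood cells, was highest in WT 1 (6.68 CPM against 2.57 to 4.19 CPM elsewhere). WT 1 also had the highest macrophage marker sum of the 6 libraries (0 of 8 markers called, 33.6 to 98.8 CPM in WT and 41.6 to 52.3 CPM in the KO-labelled libraries, none at 0), whose part in the *Adcy7* value was not tested.

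No gene of the PKA holoenzyme was called. *Prkaca*, the main catalytic subunit, read 75.5, 81.2 and 88.7 CPM in WT and 87.6, 83.0 and 88.1 CPM in the KO-labelled libraries (log2 fold change 0.08 ± 0.10 SE), and that of *Prkacb* was -0.19 ± 0.17 SE. The regulatory subunits *Prkar1a* and *Prkar2a*, at 95.2 and 119.5 TPM the abundant forms of type I and type II PKA, had log2 fold changes of -0.16 ± 0.13 and -0.16 ± 0.15 SE. *Prkar1b* and *Prkar2b* were under 1 TPM, with log2 fold changes of -0.23 ± 0.41 and -0.21 ± 0.62 SE. For all 6 the groups overlapped, and for the 4 abundant ones the SE of 0.10 to 0.17 was small beside the change in *Pde4d*. Within libraries, regulatory over catalytic TPM was 2.16, 2.3 and 2.2 in WT and 1.98, 1.93 and 2.0 in the KO-labelled libraries, a small difference without overlap that was given no test.

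Both PKA inhibitors were abundant and neither was called. *Pkia* read 724, 706 and 883 CPM in WT and 696, 639 and 748 CPM in the KO-labelled libraries, and its log2 fold change of -0.15 ± 0.15 SE was 0.20 with the GC correction, its GC content of 39.1% being the lowest of the members. *Pkig* read 44.3, 46.4 and 49.7 CPM in WT and 59.7, 51.4 and 52.4 CPM in the KO-labelled libraries, without overlap (0.22 ± 0.11 SE, adjusted p = 0.181, edgeR), and its log2 fold change was 0.05 with that correction. Inhibitor over catalytic TPM was 5.09 to 5.22 in WT and 4.69 to 5.0 in the KO-labelled libraries.

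Of the 13 anchoring proteins, *Akap8l* alone was called. Its gene lies at chr17:32321424-32350616, and it read 29.1, 30.3 and 38.3 CPM in WT and 50.4, 42.3 and 47.6 CPM in the KO-labelled libraries. All KO-labelled libraries were above all WT libraries, with WT 3 the nearest to them. The log2 fold change was 0.52 ± 0.14 SE (adjusted p = 0.0434, edgeR) and 0.28 with the GC correction (adjusted p = 0.234, edgeR), at a GC content of 58.6% against a median of 49.5% over the members. It passed the threshold in 6 of 14 alternatives, and of the 6 fits without 1 library only in that without WT 3. *Akap8*, a related protein of chromatin and the nuclear matrix, had a log2 fold change of -0.11 ± 0.12 SE.

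The most abundant anchoring protein was *Akap1*, which holds PKA at the outer mitochondrial membrane, with 57.4 TPM and a log2 fold change of -0.30 ± 0.20 SE. *Akap6*, which anchors PKA at the nuclear envelope and sarcoplasmic reticulum of muscle, read 88.4 to 93.5 CPM in WT and 77.4 to 107 CPM in the KO-labelled libraries, a log2 fold change of 0.0034 ± 0.14 SE. *Akap9*, a Golgi and centrosome scaffold, and *Akap10*, a mitochondrial form, were lower without overlap but by little, -0.24 ± 0.10 and -0.12 ± 0.11 SE. *Akap13*, which is also an exchange factor for small GTPases, was higher without overlap by 0.15 ± 0.10 SE, and *Akap11* by 0.41 ± 0.18 SE with overlap. *Akap7*, which holds PKA near phospholamban and calcium channels, had a log2 fold change of -0.53 ± 0.20 SE (adjusted p = 0.107, edgeR), and *Akap5* and *Akap17b* were at or under 1.7 TPM with overlapping groups. In all, 9 of the 50 members were lower and 5 higher without overlap between the groups, against 19.6% and 20.3% of all genes tested.

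Several members with sizeable fold changes split the libraries in part across the labelled groups. *Akap12*, a scaffold for PKA and protein kinase C, read 21.7, 26.8 and 7.87 CPM in WT and 8.70, 12.6 and 7.73 CPM in the KO-labelled libraries. WT 1 and WT 2 were high, WT 3 was at the level of KO 1, and KO 2 lay between, so that its log2 fold change was -0.95 ± 0.42 SE (adjusted p = 0.151, edgeR). *Akap2* read 125, 127 and 67.6 CPM in WT and 30.6, 92.1 and 35.3 CPM in the KO-labelled libraries (-1.01 ± 0.45 SE, adjusted p = 0.151, edgeR). Its WT 3 value lay above KO 1 and KO 3 and below KO 2. Without KO 2 the log2 fold change of *Akap2* was -1.68 (adjusted p = 0.0391, edgeR). The table also lists *Pakap* and *Palm2*, the readthrough and neighbouring genes of the same locus, so counts there may be divided and *Akap2* is uncertain. The 3 genes summed to 126, 128 and 87.5 CPM in WT and 34.7, 93.4 and 41.2 CPM in the KO-labelled libraries. *Pde4c*, *Pde8a* and *Pde3b* were also highest in WT 1, WT 2 and KO 2, with WT 3 at 3.11, 7.16 and 2.15 CPM against 10.3, 16.7 and 4.27 CPM in WT 1. WT 1, WT 2 and KO 2 were the 3 highest libraries in 14 members (28%) and in 10.4% of all genes tested. The slow fiber marker sum was also highest in these 3 libraries (0 of 8 markers called, 1389 to 8166 CPM in WT and 1672 to 4793 CPM in the KO-labelled libraries, none at 0). So were the sums of the endothelial markers, of the erythroid markers (0 of 5 tested called, 1 at 0) and of the 8 Schwann cell markers (1 called lower, none at 0, 27.4 to 74.7 CPM in WT and 26.2 to 38.8 CPM in the KO-labelled libraries). KO 2 lay only a little above KO 3 in the endothelial sum (237 against 229 CPM) and in the Schwann cell sum (38.8 against 36.9 CPM). The part of the 4 marker lists in the members' values was not tested. Without WT 3 the members called lower were *Akap7*, *Akap12*, *Adcy4*, *Pde3a*, *Pde3b*, *Pde4c*, *Pde4d*, *Pde5a* and *Pde8a*, and those called higher were *Akap8l*, *Akap11*, *Adcy2* and *Pde2a*, in a fit that called 15.7% and 16.7% of all genes.

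**Figure D5:**
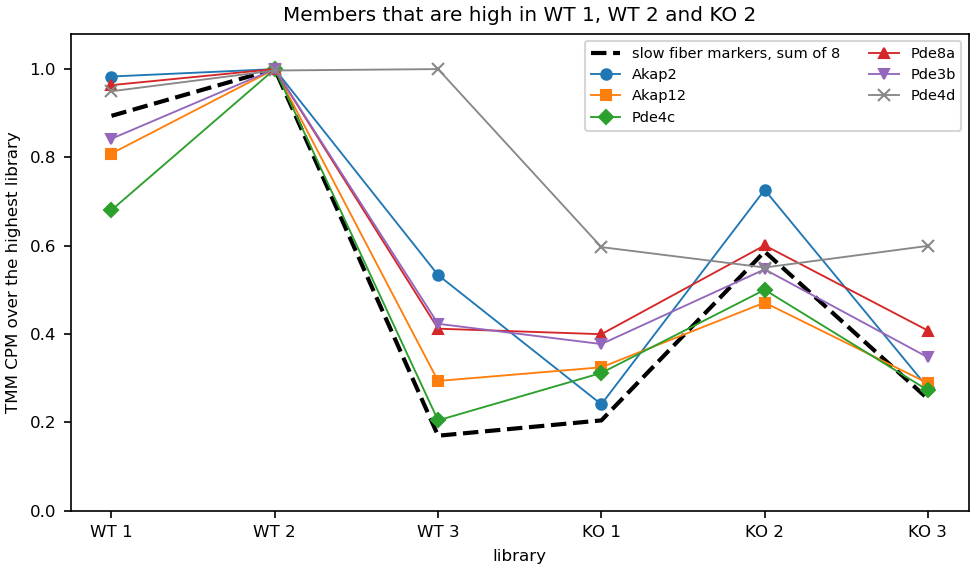
TMM-normalised CPM of 5 members and of the summed 8 slow fiber markers in each library, each divided by its own highest library (vertical axis, no unit), with *Pde4d* for contrast; lines only join points of 1 gene. The 5 members and the marker sum are high in WT 1, WT 2 and then KO 2, while *Pde4d* is high in all 3 WT libraries and low in all 3 labelled KO.

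Beyond the members, 75 further genes of the pathway were listed. Among them were Gs-coupled and related receptors, other G protein subunits and their regulators, receptor kinases, arrestins and cyclase partners. The others were cAMP-binding and PKA-binding proteins, PKA substrates, phosphatase regulators and *Pde*-named genes outside the symbol rule. Of the 75, 67 were tested, 4 were called lower and 4 higher. That is 5.97% in each direction, beside 8.39% and 7.85% of all genes, a difference of few genes that was not tested. The lower genes were *Gnai3*, an inhibitory G protein alpha subunit (-0.59 ± 0.10 SE), *Calcrl*, the receptor for CGRP and adrenomedullin (-0.96 ± 0.16 SE), *Rgs5*, a G protein regulator of pericytes (-1.10 ± 0.30 SE), and *Pde6g*, a small inhibitory subunit of the retinal phosphodiesterase at no more than 0.66 CPM (-1.38 ± 0.36 SE). The higher genes were *Gnai2*, the second inhibitory alpha subunit (0.49 ± 0.13 SE), *Gnb2*, a G protein beta subunit (0.41 ± 0.11 SE), *Adrbk2*, a kinase that turns off receptors (0.69 ± 0.15 SE), and *Hcn2*, a channel opened by cyclic nucleotides at 0.74 to 2.05 CPM (1.30 ± 0.22 SE). *Gnai3* and *Gnai2* had fold changes of opposite sign, at 24.5 to 24.9 CPM in WT and 15.6 to 17.7 CPM in the KO-labelled libraries for the former, and 46.1 to 55 and 64.15 to 82.5 CPM for the latter. With the GC correction *Gnai3*, *Gnai2*, *Calcrl*, *Gnb2* and *Rgs5* were no longer called, with log2 fold changes of -0.32, 0.27, -0.58, 0.15 and -0.82 (adjusted p = 0.0901, 0.233, 0.075, 0.379 and 0.129, edgeR), while *Pde6g*, *Adrbk2* and *Hcn2* still were. *Rgs5* is also 1 of the 8 smooth muscle and pericyte markers, of which 2, *Rgs5* and *Cnn1*, were called lower and 0 higher. Without overlap between the groups 2 were lower and 2 higher, against 19.6% and 20.3% of all genes tested. Of the higher, *Pdgfrb* read 14.7 to 21.9 CPM in WT and 23.4 to 25.4 CPM in the KO-labelled libraries. *Notch3* read 6.51 to 13.6 CPM and 16.3 to 19.4 CPM. *Des*, which skeletal fibers also express, held 84.6% to 94.9% of the summed level of the 8 in each library. The other 7 summed to 442, 516 and 226 CPM in WT and 233, 248 and 210 CPM in the KO-labelled libraries. *Rgs5* is 1 of these 7 and was the largest part of their sum in each library, so the sum is no separate measure. *Rgs5* itself read 309, 348 and 150 CPM in WT and 134, 138 and 103 CPM in the KO-labelled libraries. The part of these cells in the *Rgs5* value was not tested. The median log2 fold change of the 67 was 0.06.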

How the data were processed

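Bulk RNA-seq of whole gastrocnemius muscle was analysed, with 3 libraries in the group labelled WT and 3 in that labelled *Sirt6* KO. Groups and replicate numbers came from the sample titles, and p-values set the difference between the groups against the spread between these libraries. The authors deposited 1 table of 24532 genes on mm10. It gives read counts made with StringTie, which the authors deposited as whole numbers not normalized between libraries. It also gives FPKM, which the authors had adjusted for transcript length and depth, and TPM, which the authors had set to a common total in every library. The submitters' processing notes name bcl2fastq 2.20.0, FastQC 0.11.7, HISAT2 2.1.0, Bowtie2 2.3.4.1 and StringTie 2.1.3b, while the reporting summary gives another aligner. The labels name a stranded library kit and the methods another kit.

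The main test was edgeR 4.0.16 in R 4.3.3 on the counts. Genes were filtered with filterByExpr, which left 13801, libraries were scaled by TMM, and the quasi-likelihood model had group as the only term. P-values were adjusted by Benjamini-Hochberg over all genes tested, at 0.05. Levels are TMM-scaled CPM, or TPM where genes are compared with each other, and standard errors are those implied by the test. The scripts were tested on simulated data. Library totals of 44845763 to 63016899 put 1 count at 0.0165 to 0.0212 CPM. No columns of the authors' own comparisons were used.

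Members are named, except 1 whose result is not reported here, with library values for those past the threshold, as are genes of the wider pathway list past it, *Sirt6* and *Creb1*. *Adcy4*, *Akap2*, *Pakap*, *Palm2* and the other members given by library were chosen after their values were seen. The members, the pathway list, the marker lists and the tests were chosen with earlier results of these data known. GC content was that of the longest GENCODE M21 transcript, known for 13715 of the genes tested, and was corrected by a lowess trend per library with a span of 0.3. Other alternatives were the Wald test of DESeq2 1.42.0, its size factors in edgeR, no filter, at least 10 counts in every library, limma 3.58.1 after quantile normalization of FPKM with 1 or 0.1 added before log2, a replicate block, and each library left out in turn. Coordinates and promoters are those of RefSeq on GRCm38.p6, which is mm10.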

Additional observations from a re-analysis of the deposited data

How the results depend on the processing

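The 2 lower and 2 higher members were 4 and 2 by DESeq2's Wald test, 1 and 0 with the GC correction, and 1 and 1 with no filter on low counts. Of all genes tested these fits called 12.5%, 3.54% and 5.21% lower and 12.0%, 3.43% and 4.83% higher. The main fit called 8.39% and 7.85%. The deviations of same-numbered libraries correlated at -0.106, 0.26 and 0.161, and those of differently numbered libraries at -0.34 to 0.209. With 3 libraries per group these values neither show nor exclude a pairing by replicate number. With a replicate block the calls were 3 and 1, against 2 and 2, with a member median of -0.16. That fit called 7.38% of all genes lower and 6.55% higher. Leaving out 1 library gave between 0 and 9 lower and 0 and 4 higher members. In those fits 0.0142% to 15.7% of all genes were called lower and 0.0426% to 16.7% higher. The pathway genes outside the members, 4 lower and 4 higher, were 1 and 2 with the GC correction and 2 and 2 with no filter. The higher ones were 2 in both limma fits, which called 6.71% (FPKM + 1) and 6.93% (FPKM + 0.1) of all genes higher. With a replicate block the pathway genes were 3 and 3. Leaving out 1 library gave 0 to 9 lower and 0 to 10 higher of them. The shares of all genes in these other fits are those given above. The median log2 fold change of the members, -0.21, kept its sign throughout and was -0.12 by limma on log2(FPKM + 0.1) and -0.075 on log2(FPKM + 1). Of the 4 called members no log2 fold change changed sign under any of the 14 alternatives, and 24 of the 56 values were no longer past the threshold. The causes were not tested.

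Signs turned in members that were not called. With the GC correction *Gnas* was -0.091, *Prkaca* -0.11, *Pkia* 0.20, *Adcy3* -0.12 and *Pde7b* 0.053. With the replicate block *Akap6* was -0.0091. By limma *Prkar2b* was 0.027 and *Adcy7* 0.012 on log2(FPKM + 0.1), and *Pde10a* was 0.00017 on log2(FPKM + 1). Leaving out 1 library, *Akap5* ranged from -0.93 to 0.19, *Akap6* from -0.13 to 0.11, *Prkacb* from -0.33 to 0.023, *Prkar1b* from -0.49 to 0.067, *Prkar2b* from -0.67 to 0.40, *Adcy3* from -0.20 to 0.63, *Adcy7* from -0.38 to 0.43, *Pde10a* from -0.25 to 0.13, *Pde7b* from -0.38 to 0.0084, *Pde8b* from -0.48 to 0.0198, *Pde9a* from -0.0596 to 0.56 and *Adrb3* from -1.12 to 0.52. The block together with the GC correction was not run, since no pairing by replicate number was shown. Depth limits the members under 1 TPM, such as *Adrb3* with 80 counts in all.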

Other observations

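*Pakap*, listed beside *Akap2*, read 19.7 CPM in WT 3 and 1.24 to 5.77 CPM in the other 5 libraries. WT 3 was the lowest of the WT libraries in *Akap2* itself. Within the PKA inhibitors, *Pkia* took 82.1% to 84.2% of the TPM in WT and 77.7% to 80.9% in the libraries labelled KO, without overlap and without a test. The ratio of *Prkar2a* to *Prkar1a* TPM overlapped between the groups, at 1.14 to 1.38 in WT and 1.07 to 1.56 in the libraries labelled KO, as did that of *Prkaca* to *Prkacb*, at 2.33 to 3.40 and 3.13 to 3.39. *Adcy4* took 10.2% to 22.2% of the cyclase TPM in WT and 7.35% to 8.27% in the libraries labelled KO.

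The marker sums not given above were 125 to 261 CPM in WT and 163 to 299 CPM in the libraries labelled KO for 8 adipocyte markers, 618 to 1106 CPM and 741 to 818 CPM for 8 fibroblast markers, and 27.4 to 74.7 CPM and 26.2 to 38.8 CPM for 8 Schwann cell markers. *Fabp4* was the largest part of the adipocyte sum in each library, at 119 to 204 CPM in WT and 137 to 175 CPM in the libraries labelled KO. *Adipoq* of the same list spread more widely, from 0.77 to 9.25 CPM and from 4.17 to 19.0 CPM. No adipocyte, fibroblast or erythroid marker was called.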
